A study of Homo sapiens with 6 samples.

Results

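The ligands of NKG2D, an activating receptor of natural killer (NK) cells and cytotoxic T cells, were followed in a melanoma cell line after silencing of the kinase RIPK4. The set was taken by gene symbol and comprised the 8 human ligand genes MICA, MICB, ULBP1, ULBP2, ULBP3, RAET1E, RAET1G and RAET1L. The table of 24526 genes held a row for 6 of them, and RAET1G and RAET1L had none. The set was chosen by the level of MICB, which was higher in the RIPK4.si libraries described here, so the difference of MICB is given as a description without a test.

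NKG2D ligands are relatives of MHC class I molecules that most healthy cells keep low and that stressed, infected or transformed cells can display. Engagement of NKG2D by such a ligand can trigger killing of the displaying cell. MICA and MICB span the membrane, ULBP1, ULBP2, ULBP3 and RAET1L are held by a lipid anchor, and melanoma cells can release several of these proteins by proteolytic shedding.

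WM266.4 cells, an established human melanoma line, were transfected with negative control siRNA (neg.si) or with siRNA against RIPK4 (RIPK4.si), and RNA was collected 48 h later. Each group had 3 libraries of poly(A) RNA, described by the study as biological replicates, and no treatment other than the siRNA is named in the labels. The design has 1 cell line and 1 control siRNA condition, so an effect of the RIPK4 siRNA other than loss of RIPK4 cannot be told apart from that loss. Libraries held between 28464057 and 31688095 counted read pairs.

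RIPK4 itself was 72.3 ± 15.9 CPM (counts scaled to the same library size; mean ± SD, n = 3) in neg.si and 19.4 ± 2.48 CPM (n = 3) in RIPK4.si, that is 26.8% of the control level (-1.90 ± 0.203 (SE) on the log2 scale, with adjusted p = 0.0102 by edgeR's quasi-likelihood test). All 8 melanocyte lineage markers had a row and were tested, and 4 had an unadjusted p under 0.05 (10.8% of all tested genes), each lower in RIPK4.si. The other 4 did not. SOX10 was at 367 ± 70.4 and 331 ± 11.1 CPM, also lower in RIPK4.si. TYRP1 was at 27.9 ± 2.05 and 35.9 ± 6.21 CPM, MITF at 348 ± 53.2 and 358 ± 17.1 CPM and MLANA at 12.5 ± 1.19 and 13.1 ± 1.56 CPM. PMEL, a melanosome protein, was the one called by edgeR (0.767% of all tested genes) and fell from 280.0 ± 31.5 to 114 ± 8.11 CPM (-1.30 ± 0.152 (SE) on the log2 scale, edgeR adjusted p = 0.0111). DESeq2, which called 2.78% of all genes, called 3 of the 8, PMEL, TYR (1348 ± 112 and 911 ± 36.1 CPM, adjusted p = 0.0417) and DCT (699.6 ± 101 and 423 ± 13.6 CPM, adjusted p = 0.00361), the latter both enzymes of melanin synthesis, and 2 were called with the GC trend removed (3.27% of all tested genes). The edgeR calls of RIPK4 and PMEL were lost when neg.si replicate 2 or any 1 of the 3 RIPK4.si libraries was left out. Over all 6 such fits the log2 difference of RIPK4 lay between -2.06 and -1.74. NK cell markers were near 0, with their summed level between 0.766 and 1.23 CPM in neg.si and between 0.772 and 1.23 CPM in RIPK4.si, most of it from NCR1. KLRK1, the gene of the receptor NKG2D, had no row. The summed level of the other blood cell markers was 2.10 to 2.74 CPM in neg.si and 1.96 to 2.32 CPM in RIPK4.si. Summed keratinocyte, fibroblast and endothelial markers were 2.74 to 5.88 and 6.20 to 6.40 CPM, most of it from PDGFRB, and summed melanocyte markers were 3573 to 4012 and 2635 to 2759 CPM. Both of these sums moved with the groups, and their part in the ligand values was not tested.

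MICA and MICB lie side by side in the MHC region of chromosome 6 on the plus strand, MICA at 31399784 to 31415315 and MICB at 31494881 to 31511124 (GRCh38, GENCODE release 44). The other 6 genes form a cluster on the long arm of the same chromosome, between 149883179 and 150069121. The stretches before the RefSeq start sites of MICA and MICB are shown because the sequences are near copies. Both start sites lie inside the gene spans given above, and which starts these cells use was not examined. The stretches run from 250 to 121 bases before the start, on the plus strand of GRCh38.p14, with capitals marking the match to GAANNTTC, the core of the heat shock element bound by HSF1.

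MICA, chr6:31403345-31403474: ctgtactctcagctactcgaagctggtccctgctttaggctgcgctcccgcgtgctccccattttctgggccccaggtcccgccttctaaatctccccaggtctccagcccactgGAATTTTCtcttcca

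MICB, chr6:31497895-31498024: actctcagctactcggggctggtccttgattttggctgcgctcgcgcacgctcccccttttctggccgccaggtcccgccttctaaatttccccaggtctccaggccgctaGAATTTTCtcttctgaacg

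Aligned, the printed stretches were identical at 110 of 126 aligned bases, or 87.3%, and the whole promoters of 300 bases at 246 of 284, or 86.6%. The motif began 135 bases before the MICA start and 139 bases before the MICB start. It was present on either strand in 6.77% of 35116 RefSeq promoters of the same length and in none of the promoters of the other 6 ligand genes. Each promoter of the pair also held 1 match to the GC box GGGCGG, a motif found in 45.0% of promoters. CCAAT, found in 34.6%, occurred at 2 places in MICA and 1 in MICB.

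MICB, a stress-induced transmembrane ligand whose rise chose the set, was among the 3 ligands that passed the filter on low counts. Its level was 12.4, 12.5 and 11.8 CPM in neg.si replicates 1, 2 and 3, and 35.2, 38.1 and 40.2 CPM in RIPK4.si replicates 1, 2 and 3. Every RIPK4.si library was above every neg.si library, as for 8.23% of tested genes. The means were 12.2 ± 0.368 and 37.8 ± 2.51 CPM (SD, n = 3 each), a ratio of 3.09 or 1.63 ± 0.151 (SE) on the log2 scale. Behind these levels were 374 to 385 read pairs in each neg.si library and 1033 to 1250 in each RIPK4.si library. Since the sample is bulk RNA, more cells with the transcript and more transcript per cell cannot be told apart.

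MICA, its closest relative, was at 52.3, 46.4 and 41.8 CPM in neg.si and at 47.9, 40.8 and 43.2 CPM in RIPK4.si. The groups overlapped. Means were 46.8 ± 5.28 and 44 ± 3.62 CPM (n = 3 each). The log2 difference of -0.09 ± 0.154 (SE) did not pass the edgeR test (adjusted p = 0.927). The summed counts, 3932 against 4341, scaled by library size gave a ratio of 0.941 with an exact 95% interval of 0.901 to 0.982. That interval covers counting error only, not the spread between libraries.

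MICB made up 19.2%, 21.2% and 22.0% of the MICA and MICB read pairs in the neg.si libraries and 42.3%, 48.3% and 48.2% in the RIPK4.si libraries. The mean share went from 20.8% ± 1.45 to 46.3% ± 3.40 (SD, n = 3 each), a difference of 25.5 percentage points. This ratio is taken within a library and does not depend on how libraries are scaled. As with MICB itself, the difference is a description.

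ULBP2 encodes a lipid-anchored ligand. Its transcript was at 1.26, 1.20 and 1.35 CPM in neg.si and at 2.39, 2.22 and 2.03 CPM in RIPK4.si. The groups did not overlap, and the means were 1.27 ± 0.0781 and 2.21 ± 0.180 CPM (n = 3 each). The log2 difference was 0.80 ± 0.240 (SE), but ULBP2 did not pass the test across all genes (adjusted p = 0.219 by edgeR's quasi-likelihood test, unadjusted 0.00864). Over the alternative settings its adjusted p ranged from 0.0846 to 0.644. A value above all controls was found for 8.23% of tested genes, and an unadjusted p-value under 0.05 for 10.8%. An exact permutation test over the libraries gave a two-sided p of 0.1, the smallest that 3 against 3 allows.

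The remaining measured ligands were close to the limit of detection and did not pass the filter on low counts. ULBP1, another lipid-anchored ligand, had 3, 5 and 7 read pairs in neg.si and 16, 5 and 17 in RIPK4.si, and the groups overlapped. ULBP3, of the same kind, had 4, 5 and 16 in neg.si and 8, 6 and 24 in RIPK4.si, again with overlap. RAET1E, which encodes a membrane-spanning ligand, had 1, 1 and 4 in neg.si and 10, 7 and 6 in RIPK4.si, so each RIPK4.si library was above each neg.si library.

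Scaled by library size, summed counts gave RIPK4.si over neg.si ratios of 2.63 for ULBP1 (exact 95% interval 1.41 to 5.15), 1.58 for ULBP3 (0.928 to 2.73) and 3.98 for RAET1E (1.58 to 12). These intervals cover counting error only. By the exact permutation test over libraries, two-sided, p was 0.2 for ULBP1, 0.5 for ULBP3 and 0.1 for RAET1E. Groups without overlap in the same direction occurred in 5.71% of the 8229 genes below the filter. Without RIPK4.si replicate 3, the log2 ratio of mean CPM of ULBP3 changed from 0.65 to -0.15. That of RAET1E changed from 2.02 to 2.98 without neg.si replicate 3.

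Of the 8 ligand genes, 3 passed the filter (MICA, MICB and ULBP2). Neither MICA nor ULBP2 was called at an adjusted p under 0.05 by edgeR, which called 0.767% of the 16297 tested genes (0.374% called and higher in RIPK4.si), or by DESeq2, which called 2.78% of the 15490 genes with an adjusted p. MICB is left out of this count because its rise chose the set. Without neg.si replicate 2, RIPK4.si replicate 1 or RIPK4.si replicate 3, edgeR called 0 genes in all, while 1153, 1426 and 1086 genes had an unadjusted p under 0.05. Over all tested genes the median log2 fold change was -0.02.

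Levels of different ligands were compared per length, as CPM per kb of annotated exon. In neg.si the order was MICA (12.2 ± 1.37), MICB (4.37 ± 0.132), ULBP2 (0.952 ± 0.0585), ULBP3 (0.0856 ± 0.0663), ULBP1 (0.0502 ± 0.0193) and RAET1E (0.0089 ± 0.0075), all SD with n = 3. In RIPK4.si MICB stood at 13.5 ± 0.896, MICA at 11.4 ± 0.939 and ULBP2 at 1.65 ± 0.135. ULBP3 and ULBP1 overlapped in both groups and could not be ordered.

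**Figure D1:**
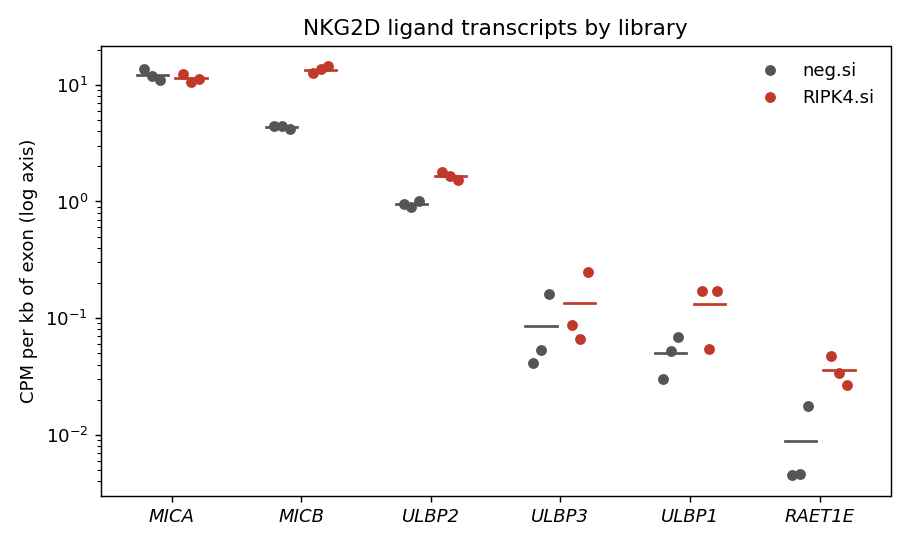
Level of each measured NKG2D ligand in CPM per kb of exon (log axis) in the 3 neg.si (grey) and 3 RIPK4.si (red) libraries; points are libraries and lines are means. MICB moved from 4.37 to 13.5, beside MICA at 12.2 and 11.4, while ULBP3, ULBP1 and RAET1E stayed below 0.25 in every library.

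The order of MICA and MICB in RIPK4.si depended on the length used. MICB over MICA was 1.18 per base of all annotated exons, but 0.804 with the longest transcript of each gene as the length. In neg.si the same ratio was 0.359 and 0.244, with MICA above MICB either way. By the first measure, MICB was 23.3% to 25.8% of the summed ligand level per length in the neg.si libraries and 46.4% to 52.3% in the RIPK4.si libraries. ULBP1, ULBP2, ULBP3 and RAET1E together were 5.35% to 7.73% and 6.96% to 7.71%. The summed level was 17.6 ± 1.40 CPM per kb in neg.si and 26.9 ± 0.764 in RIPK4.si (n = 3 each), and MICB, chosen for its rise, is part of that sum.

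**Figure D2:**
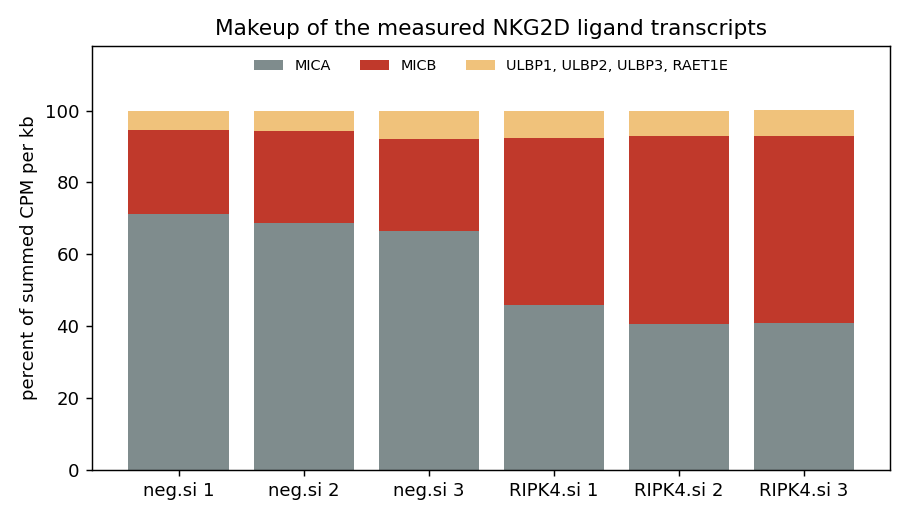
Share of the summed CPM per kb of the 6 measured NKG2D ligands held by MICA (grey), MICB (red) and the other 4 together (yellow) in each library. MICB held 23.3% to 25.8% in neg.si and 46.4% to 52.3% in RIPK4.si.

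By exact match within exons of the reference genome, nearly all of each ligand gene was unique within the family. Reads across exon junctions, mismatches and the alleles of this cell line were not examined. All exonic windows of 100 bases in MICA, ULBP1, ULBP3 and RAET1E occurred nowhere in another family gene, introns and pseudogenes included. For MICB 98.9% did so, with 23 windows also found in the MICA gene but not whole within a MICA exon, and for ULBP2 92.0%, with 67 shared with RAET1L. Counting ignored strand. Exons of MICA share 94 bases with a Y RNA gene on the opposite strand and 62 with a long non-coding RNA gene on the same strand, and neither of these has a row. Exons of MICB share 55 bases with MICB-DT on the opposite strand, which had 11 to 29 read pairs a library. Those of RAET1E share bases with RAET1E-AS1, and reads from such partners cannot be told apart there. RAET1E also shares 1050 exonic bases with another protein-coding gene annotated on its own strand, which had 1 to 5 read pairs a library beside the 1 to 10 of RAET1E.

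Within 250000 bases of MICA or MICB, 20 other protein-coding genes were tested. Of these, 0 were called by edgeR, against 0.767% of all tested genes, and 1 had an unadjusted p under 0.05, against 10.8%, with log2 fold changes from -0.89 to 0.48 and a median of 0.01. Around the ULBP and RAET1 cluster, 5 were tested and 0 were called (1 at an unadjusted p under 0.05), with log2 fold changes from -0.57 to 0.56. The protein-coding genes whose centred log2 CPM over the 6 libraries lay nearest to that of MICB were UAP1L1, LOXL3, SQOR, YBX3 and CCN1, at root mean square distances of 0.104 to 0.184 among 13045 genes. ULBP2 was at 0.451 and MICA at 0.865. As MICB was chosen for its rise, this is a description. The 5 nearest genes had log2 fold changes of 1.30 to 1.72, beside 1.63 for MICB, and shared regulation was not tested.

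Regulators of NKG2D ligand transcription, a list of 17 genes that includes heat shock, DNA damage and stress factors, gave 0 calls with edgeR and 0 with DESeq2, against 0.767% and 2.78% of all genes, and 1 gene had an unadjusted p under 0.05, against 10.8%. That gene was TFAP2A, a transcription factor of the melanocyte and neural crest lineage, at 24.4 ± 1.13 CPM in neg.si and 34.5 ± 2.01 in RIPK4.si (0.50 ± 0.146 (SE) on the log2 scale, edgeR adjusted p = 0.196). With the GC trend of each library removed it was called (adjusted p = 0.0472), where 3.27% of tested genes were. E2F1, a cell cycle factor, was at 28.5 ± 8.50 and 39.8 ± 6.14 CPM (adjusted p = 0.508). DDIT3 (CHOP), a factor of the endoplasmic reticulum stress response, was at 13.6 ± 3.34 and 11.7 ± 0.610 CPM, and the NF-kB subunit RELA at 40.5 ± 8.12 and 35.6 ± 0.488 CPM. The list's median log2 fold change was 0.01.

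RNA-level regulators, such as RNA-binding proteins of the IGF2BP family, also gave 0 calls among 8 tested genes with edgeR (0 at an unadjusted p under 0.05) and 0 with DESeq2, where all genes gave 0.767%, 10.8% and 2.78%. MCM7, host gene of the miR-106b cluster, was at 244 ± 54.6 and 315 ± 42.2 CPM (log2 fold change 0.37, adjusted p = 0.567 by edgeR). IGF2BP2 was at 81.4 ± 10.5 and 90.6 ± 26.3 CPM, IGF2BP3 at 173 ± 23.8 and 146 ± 21.2 CPM, and RBM4 at 38.7 ± 8.0 and 38.5 ± 7.22 CPM.

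Genes for shedding and surface turnover of the ligands were tested for 7 of 8 members. None was called with edgeR (0.767% of all genes) or DESeq2 (2.78%), and 3 of 7 had an unadjusted p under 0.05 (10.8% of all genes). ADAM10, a metalloprotease that releases MICA and MICB from the cell surface, was at 329, 389 and 567 CPM in neg.si and at 294, 200 and 262 CPM in RIPK4.si. ADAM17, a sheddase of the same family, was at 49.5, 67.8 and 86.8 CPM in neg.si and at 43.8, 25.8 and 45.1 CPM in RIPK4.si. For both, each RIPK4.si library lay below each neg.si library, as for 9.40% of tested genes.

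On the log2 scale ADAM10 differed by -0.77 ± 0.231 (SE, edgeR adjusted p = 0.219) and ADAM17 by -0.83 ± 0.263 (SE, adjusted p = 0.241). DESeq2 gave adjusted p-values of 0.0544 for ADAM10 and 0.0651 for ADAM17. The highest library for both, neg.si replicate 3, was also the library in which genes of low GC content were high, with a rank correlation of level and GC content across genes of -0.547. The part of this trend in the differences was measured only by its removal, which gave -0.72 (adjusted p = 0.0447) for ADAM10 and -0.79 (0.0592) for ADAM17. Without neg.si replicate 3 the log2 fold changes were -0.51 (0.231) and -0.61 (0.249).

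TIMP3, a secreted inhibitor of both proteases, was at 1489, 1744 and 1499 CPM in neg.si and at 1901, 2325 and 2190 CPM in RIPK4.si. Each RIPK4.si library lay above each neg.si library, as for 8.23% of tested genes. The log2 difference was 0.44 ± 0.161 (SE, edgeR adjusted p = 0.335). ADAM9, a further member of the protease family, was at 137 ± 25.6 and 144 ± 9.53 CPM. MMP14, also a protease of the list, was at 1448 ± 432 and 1447 ± 85.3 CPM. The list's median log2 fold change was -0.06.

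**Figure D3:**
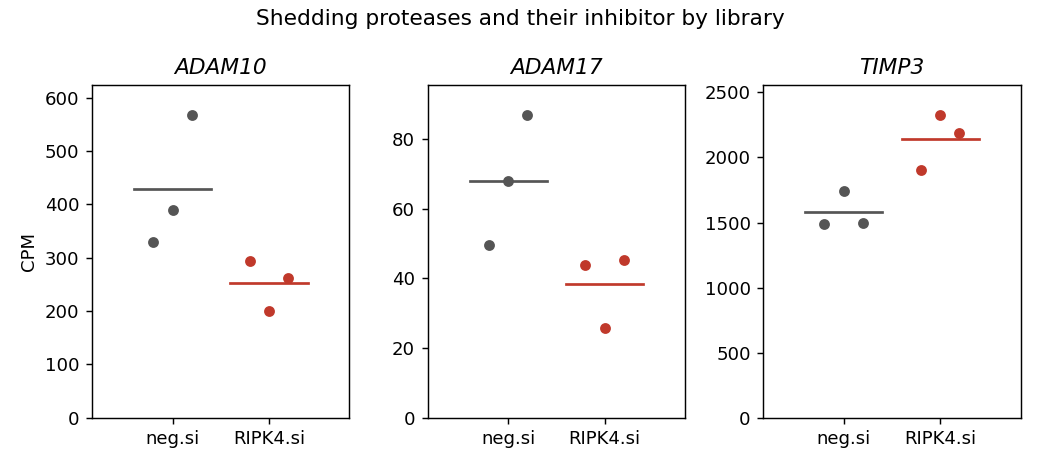
Level in CPM (linear axes from 0) of ADAM10, ADAM17 and TIMP3 in the 3 neg.si (grey) and 3 RIPK4.si (red) libraries; points are libraries and lines are means. The RIPK4.si libraries lay below the neg.si libraries for ADAM10 and ADAM17 (as for 9.40% of tested genes) and above them for TIMP3 (as for 8.23%). The edgeR adjusted p-values were 0.219, 0.241 and 0.335. Other genes of the shedding list are not drawn.

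Ligands of other activating NK receptors gave 0 calls among 11 tested genes with edgeR (2 at an unadjusted p under 0.05) and 0 with DESeq2, beside 0.767%, 10.8% and 2.78% of all genes. CLEC2B, ligand of NKp80, was at 32.1 ± 2.58 and 44.7 ± 10.3 CPM (log2 fold change 0.48, adjusted p = 0.374 by edgeR). NID1, a basement membrane protein that also binds NKp44, was at 212 ± 37.0 and 139 ± 50.9 CPM (log2 fold change -0.61, adjusted p = 0.444). PVR, ligand of DNAM-1, was at 30.9 ± 5.12 and 35.3 ± 2.58 CPM, and CD70, ligand of CD27, at 48.2 ± 11.6 and 39.0 ± 3.03 CPM.

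Ligands of inhibitory NK receptors gave 0 calls among 10 tested genes with edgeR (0 at an unadjusted p under 0.05) and 0 with DESeq2, again beside 0.767%, 10.8% and 2.78% of all genes. HLA-B, a classical MHC class I molecule, was at 219 ± 14.0 and 190.1 ± 23.9 CPM. HLA-E, ligand of NKG2A, was at 240.2 ± 49.9 and 250.2 ± 24.3 CPM, and LGALS9 (galectin 9) at 7.45 ± 2.46 and 7.49 ± 1.35 CPM. The medians of the activating and inhibitory lists were 0.00 and -0.15 on the log2 scale.

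**Figure D4:**
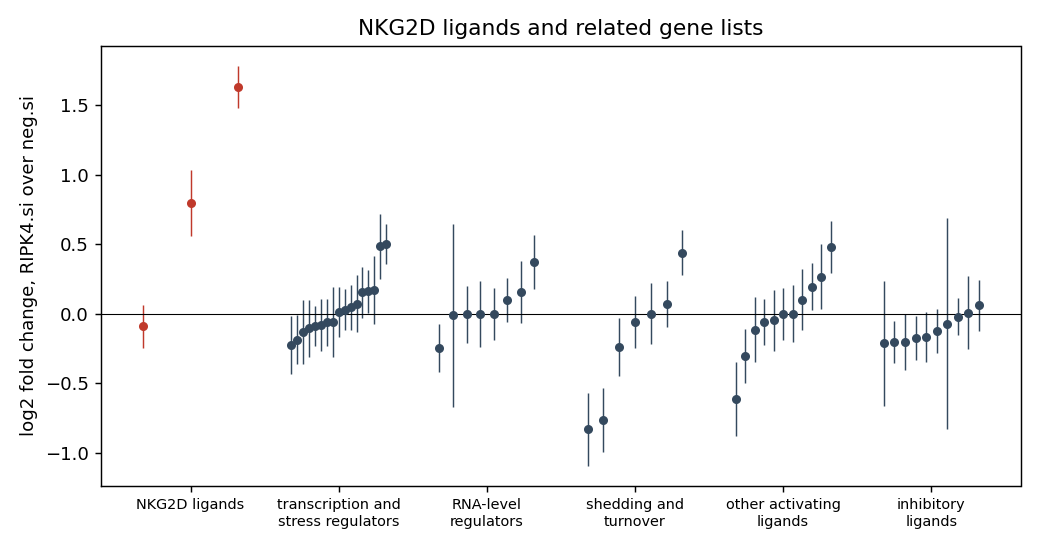
Log2 fold change, RIPK4.si over neg.si, of the tested genes of the NKG2D ligand set (red) and of 5 related lists (blue); each point is a gene, and bars are the standard error of the fit. MICB, whose rise chose the set, was at 1.63 and ULBP2 at 0.80, and the lists held values from -0.83 (ADAM17) to 0.50 (TFAP2A).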

How the data were processed

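Total RNA of 6 WM266.4 cultures was sequenced as poly(A) libraries. Per the labels and methods, the authors trimmed reads with cutadapt, checked them with FastQC, mapped them with TopHat to GRCh38.p13 and used HTSeq to count the pairs on each gene without regard to strand. The deposited table holds raw counts per gene and library, which were used here. It also holds the authors' normalized signal per library and its mean, and the fold ratio, log2 fold change and p-value columns of their own DESeq2 comparison, which were not used.

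Counts were fitted with edgeR 4.0.16 (TMM, filterByExpr, quasi-likelihood test, Benjamini-Hochberg over 16297 genes, called under 0.05), and DESeq2 1.42.0 was an alternative. CPM were scaled by TMM, and standard errors are the log2 fold change over the root of the F statistic. Both tools were tested on simulated data. GENCODE release 44 gave coordinates and lengths (24416 IDs found), and RefSeq gave promoters, found for all 8 ligand genes. Other settings were the removal of a lowess trend on GC content (span 0.3), a replicate block, other scalings and filters, and leaving out each library. Named genes were all ligands, RIPK4, in each list the called genes or else the 2 with the smallest p in each direction, called neighbours, and the 5 genes nearest MICB. One gene that this rule names is not reported here. Members, lists and settings were chosen with earlier results of these data known.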

Additional observations from a re-analysis of the deposited data

How the results depend on the processing

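The log2 fold change of MICB lay between 1.59 and 1.69 in all alternatives run, and that of ULBP2 between 0.75 and 0.86, with ULBP2 called in none. When libraries were left out, MICA ranged from -0.162 to 0.0145, positive only without neg.si replicate 1, and the log2 ratio of ULBP3 ranged from -0.15 to 1.5, negative only without RIPK4.si replicate 3. The number of NKG2D ligands past the threshold, 0 to 1 when libraries were left out, counts only MICB, whose rise chose the set, and supports nothing. Calls over all genes numbered 125, against 430 with DESeq2, 533 with the GC trend removed, 434 with the replicate block and the GC trend removed, and 0 to 295 when a library was left out. Removal of the GC trend gave 1 call among transcription and stress regulators (TFAP2A) and 1 in the shedding list (ADAM10). Together with the replicate block it gave 1 in the shedding list and 0 among the regulators. The causes of these shifts were not tested. The difference in MICB share was 24.5 to 27.4 percentage points when a library was left out.

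Deviations of same-numbered libraries correlated at -0.242, 0.251 and 0.346, and those of differently numbered libraries at -0.498 to 0.413. Such values from 3 libraries a group cannot decide whether the replicate numbers pair them. The replicate block gave 131 calls over all genes, and MICA and ULBP2 were not among them. Depth limits ULBP1, ULBP3 and RAET1E, with 6 to 38 read pairs per group. With 3 libraries a group, an exact test cannot go below 0.1.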
